A study of Mus musculus with 10 samples.

Results

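The interleukins and their receptors were followed in left atrial RNA of mice whose aorta had been constricted and of sham-operated controls. The members were taken by name, as every gene symbol in the count tables that starts with Il and a digit, except Il17rd. This gave 82 of 48397 symbols, which comprise 37 ligands, 37 receptor chains, 6 antagonists or decoys, the antisense RNA Il1bos and Il4i1, an amino acid oxidase named for its induction by IL-4. The study compared 5 libraries from wild-type mice after transverse aortic constriction (TAC), an operation that narrows the arch of the aorta and makes the heart pump against a raised pressure, with 5 libraries from wild-type mice after a sham procedure (Sham). Both groups were operated on at 2 months of age and sampled 2 weeks later. The design text names male C57BL/6J mice and the left appendage, the sample labels say left atrium, and the RNA and library kits named in these sources differ too. Whether every library stands for its own mouse is not stated, so the tests weigh differences against the spread among these libraries, some of which may be technical.

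Interleukins are secreted proteins by which leukocytes, fibroblasts, endothelial cells and muscle cells signal to one another. Most act through paired receptor chains, in which a private chain recognises the ligand and a shared chain, such as gp130 (Il6st), the common gamma chain (Il2rg) or the IL-1 receptor accessory protein (Il1rap), carries the signal to JAK kinases and STAT factors or to MYD88 and NF-kB. In heart muscle, members of the IL-1, IL-6 and IL-13 groups are known for their part in inflammation, growth of muscle cells and scar formation, and antagonists such as Il1rn and decoys such as Il13ra2 hold them in check.

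Where members that rose have a promoter in the RefSeq table for build GRCm38.p6, a stretch upstream of the annotated start is shown for those that hold a sequence like the NF-kB site, together with the ligand Il11 and the decoy Il13ra2, whose counts were near 0 in Sham and higher in TAC and whose windows hold a sequence like the AP-1 site. These 2 were not tested and are shown because they hold the match. Il12b and Il27, also with higher counts in TAC, gave no such match. The capitals mark the matched letters, on either strand.
Il6: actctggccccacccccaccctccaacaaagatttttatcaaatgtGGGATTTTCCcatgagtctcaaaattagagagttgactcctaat
Il1rn: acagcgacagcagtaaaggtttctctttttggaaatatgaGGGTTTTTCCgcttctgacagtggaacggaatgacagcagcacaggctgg
Il16: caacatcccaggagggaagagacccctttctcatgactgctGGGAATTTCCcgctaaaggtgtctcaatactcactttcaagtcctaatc
Il17rc: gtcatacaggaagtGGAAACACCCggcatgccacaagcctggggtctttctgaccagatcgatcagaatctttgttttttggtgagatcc
Il11: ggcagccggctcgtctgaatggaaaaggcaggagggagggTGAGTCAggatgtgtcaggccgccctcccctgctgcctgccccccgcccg
Il13ra2: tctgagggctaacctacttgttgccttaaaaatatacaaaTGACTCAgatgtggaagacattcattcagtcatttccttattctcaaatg
These runs lie at chr5:30013024-30013113 (Il6, plus strand), chr2:24345280-24345369 (Il1rn, plus strand), chr7:83655496-83655585 (Il16, minus strand), chr6:113471205-113471294 (Il17rc, plus strand), chr7:4778190-4778279 (Il11, minus strand) and chrX:147429336-147429425 (Il13ra2, minus strand). The first matched base stands 44 bases before the start of Il6, 51 before that of Il1rn, 49 before that of Il16, 236 before that of Il17rc, 98 before that of Il11 and 193 before that of Il13ra2. Il1rn and Il16 have other annotated starts too, so their distances hold only for the start of the window shown. The same Il1rn match lies 29 bases after another of its starts.

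Promoter windows of 300 bases, from 250 before to 50 after a start, were found for 65 of the 82 members, in 80 windows. The NF-kB letters, GGG and TTTCC with any pair of bases between them and read on both strands, occurred in at least 1 window of 5 of the 13 risen members with a promoter (Il1rn, Il4ra, Il6, Il16 and Il17rc), or 38.5%. They occurred in 2 of the 52 other members (Il9 and Il23r), or 3.85%, and in 1.89% of the 27025 genes in the table. These 52 pool tested members not called higher with untested ones, many with few or no counts, such as Il9 with 0. The shares therefore do not set risen members against expressed but unchanged ones. The AP-1 letters TGANTCA, also read on both strands, were found in 3 of the 13 risen members (23.1%), in 11 of the 52 others (21.2%) and in 8.97% of all genes. The 3 are Il1rn, Il6 and Il16, and the 11 include the untested Il11 and Il13ra2. Of the 3 only Il6 holds the NF-kB and AP-1 letters in the same window. The STAT letters TTCNNNGAA, likewise on both strands, were found in 0 of the 13, in 11 of the 52 (21.2%) and in 9.55% of all genes. The match of Il4ra lies after its start, and 2 overlapping windows of Il1rn hold the same match. A match describes the letters of the window and no binding was measured.

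Library totals lay between 17117306 and 43956384 gene counts, and all members together took from 0.0572% to 0.0941% of them. Sham replicates 1 and 2 were the shallowest, and 1 count was worth from 0.0227 to 0.0584 CPM, the count scaled to a common library total. Mitochondrial genes took 14.6% to 17.4% of counts in Sham and 9.31% to 14.2% in TAC. The atrial muscle markers Myl7, Myl4, Sln, Nppa, Bmp10, Kcna5 and Nr2f2 summed to 27116 to 29908 CPM in Sham and 17887 to 22218 CPM in TAC, and 4 ventricular markers to 374 to 990.2 CPM in Sham and 182 to 331 CPM in TAC. Levels below are CPM scaled by TMM, a method that corrects library size for differences in composition, and replicates are listed in the order 1 to 5. A member was called when the adjusted p of edgeR's quasi-likelihood test, taken over all 15175 genes tested, was under 0.05. In this bulk tissue a change in the number of cells of a type and a change in RNA per cell cannot be told apart.

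Of the 82 members 37 had enough counts to be tested. In TAC 16 were higher, 4 were lower and 17 were not called. The transcriptome differed broadly between the groups, with 56.8% of all tested genes called, 28.9% higher and 27.9% lower, against 43.2% and 10.8% of the tested members. A change of at least 2-fold upward was called for 11 tested members (29.7%), where 11.7% of all tested genes showed one, and for 0 members downward, where 8.1% of all genes did. In 13 members every TAC library lay above every Sham library (35.1%, background 21.5%), and in 1 every TAC library lay below (2.70%, background 20.2%). Of all tested genes, 41.7% had groups that did not overlap in either direction. These shares are a description. Of the 16 higher members, Il1b, Il1rn, Il18rap and Il6 passed the filter on low counts only with their TAC libraries counted, as did Il4, Il2rb and Il7r, which were not called. The other 12 higher members would have passed on their Sham libraries alone. The median log2 fold change was 0.39 over the tested members and 0.01 over all tested genes. When libraries were scaled by their totals alone, the median of all genes moved to 0.37, all 16 higher members were called again with 6 more, and none was called lower. The 6 were Il1r1, Il1rl1, Il6ra, Il11ra1, Il17d and Il18. Under that scaling 51.0% of all tested genes were higher and 12.7% lower.

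**Figure D1:**
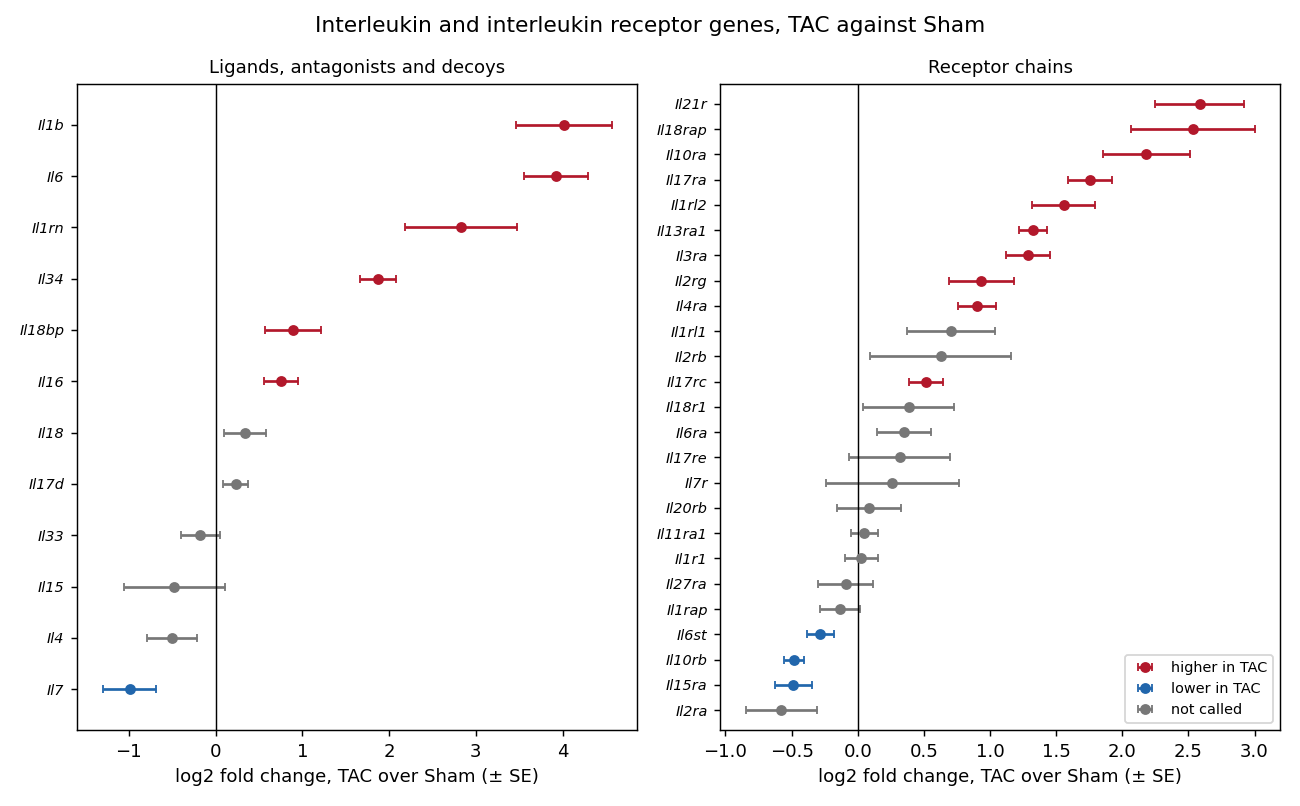
Log2 fold change (TAC over Sham) of the 37 tested members with the standard error as bars, ligands and antagonists at left and receptor chains at right. The largest increases are those of Il1b and Il6 at left and of Il21r, Il18rap and Il10ra at right, and the 4 decreases are smaller than 2-fold.

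The ligand genes that rose were few but included the largest changes. Il1b, which encodes IL-1 beta, the main inflammatory product of activated monocytes and macrophages, lies at chr2:129364570-129371139 (GRCm38). Its level was 0.248, 0.767, 0.243, 0.541 and 0.413 CPM in the Sham libraries and 1.41, 11.5, 9.83, 7.05 and 5.67 CPM in the TAC libraries. The groups did not overlap, but TAC replicate 1 stood well below the other 4 TAC libraries and less than 2-fold above the highest Sham library. The fitted log2 fold change was 4.02 (SE 0.55, edgeR adjusted p = 0.00011), from 0.442 ± 0.220 to 7.08 ± 3.90 CPM (SD, n = 5). Its sister cytokine Il1a was near 0, with 5 counts in all Sham libraries together and 11 in all TAC libraries, and was not tested.

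Il6, the ligand that signals through Il6ra and gp130, lies at chr5:30013114-30019981. It measured 0.124, 0.192, 0.0304, 0.103 and 0.113 CPM in Sham and 1.27, 1.94, 2.22, 1.29 and 1.35 CPM in TAC. All TAC libraries exceeded 1 CPM and no Sham library reached 0.2 CPM. The log2 fold change was 3.92 (SE 0.37, edgeR adjusted p = 7.1e-06), resting on 13 Sham counts and 303 TAC counts. Both Il1b and Il6 remained low-abundance transcripts in TAC, at 3.71 and 0.665 CPM per kb of exon, against 28.7 for Il6st.

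Il34 and Il16 also rose. Il34, a ligand of the macrophage growth factor receptor CSF1R, was at 1.99, 1.92, 1.70, 1.55 and 1.43 CPM in Sham and 4.70, 8.496, 4.91, 7.84 and 5.15 CPM in TAC, with TAC replicates 2 and 4 highest and no overlap (log2 fold change 1.87, SE 0.21, edgeR adjusted p = 2.3e-05). Il16, a chemoattractant that binds CD4, was at 4.35, 6.84, 3.74, 6.85 and 5.63 CPM in Sham and 6.31, 10.3, 9.92, 9.07 and 10.5 CPM in TAC. TAC replicate 1 lay within the Sham range, and the log2 fold change was 0.75 (SE 0.20, edgeR adjusted p = 0.0066). Of the exonic bases of Il16, 17.4% are shared with genes on the opposite strand.

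Among ligands present in the sham atrium, none other rose. Il33, an alarmin of stromal and endothelial nuclei and the most abundant ligand per kb of exon, measured 28.8, 26.8, 17.1, 13.7 and 16.4 CPM in Sham and 18.9, 11.5, 18.9, 22.4 and 18.9 CPM in TAC. Its highest values were those of Sham replicates 1 and 2, and the groups overlapped (log2 fold change -0.17, SE 0.23, edgeR adjusted p = 0.54). Il18 was not called (1.45 ± 0.406 and 1.81 ± 0.416 CPM, SD, n = 5, edgeR adjusted p = 0.25). Il17d, at 2.23, 2.81, 2.58, 2.29 and 2.66 CPM in Sham and 2.85, 3.06, 2.43, 3.44 and 2.98 CPM in TAC, overlapped between groups and was not called (adjusted p = 0.20). Il4 was at 0.570 ± 0.205 and 0.410 ± 0.0588 CPM (adjusted p = 0.15). Il7, a survival factor for lymphocytes, was the single ligand that fell, from 1.12, 1.53, 1.003, 0.850 and 0.938 CPM in Sham to 0.578, 0.324, 0.385, 0.470 and 0.923 CPM in TAC. TAC replicate 5 lay within the Sham range (log2 fold change -0.99, SE 0.31, edgeR adjusted p = 0.017). The call of Il7 ended under scaling by totals alone (adjusted p = 0.11) and without the 2 shallow Sham libraries (adjusted p = 0.090).

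Il15, which supports natural killer cells and memory T cells, lies at chr8:82331632-82403222 and was uneven among the Sham libraries. The Sham libraries held 2.23, 18.3, 2.70, 24.2 and 26.9 CPM and the TAC libraries 12.9, 10.4, 10.3, 10.3 and 9.84 CPM. Sham replicates 1 and 3 lay more than 6-fold below the other 3 Sham libraries, while the TAC libraries lay between these extremes and close together. No difference between the groups was called (log2 fold change -0.47, SE 0.58, edgeR adjusted p = 0.51).

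**Figure D2:**
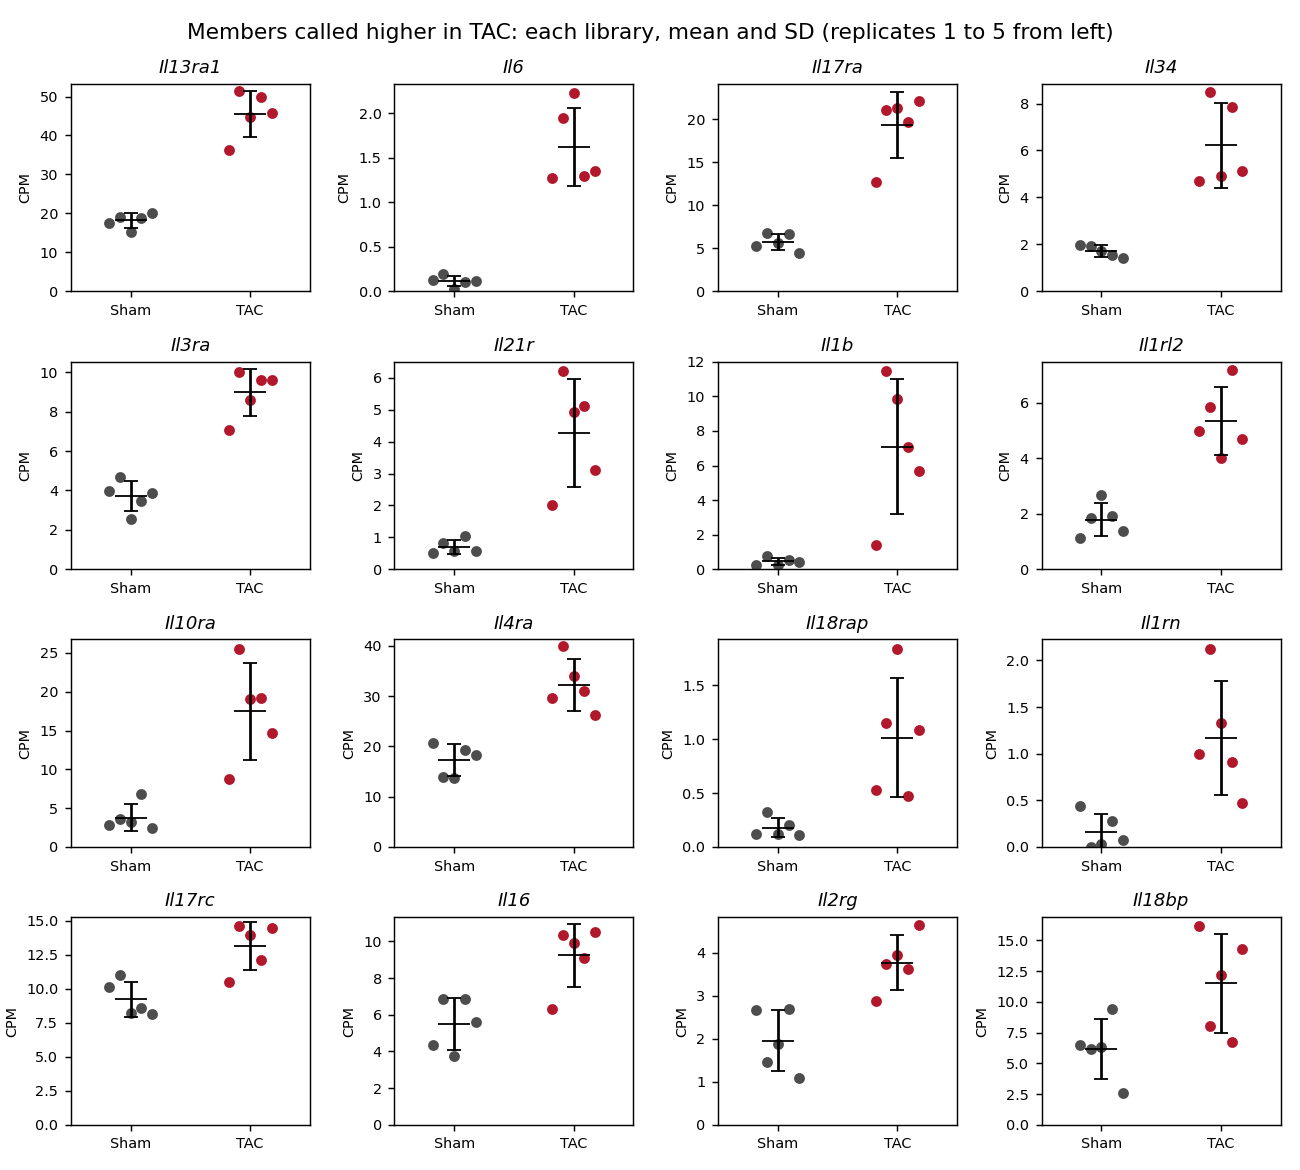
CPM (linear axis from 0) of the 16 members called higher in TAC, 1 panel per gene, with each library as a point in replicate order and the mean and SD in black. In 13 panels every TAC point is above every Sham point, and the leftmost TAC point, replicate 1, is the lowest TAC point in 11 panels.

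Both tested antagonists, which act on the IL-1 family, rose (2 of 2, where 28.9% of all tested genes were higher). Il1rn passed the filter on low counts only with its TAC libraries counted, and the other 4 antagonists or decoys were not tested. The count of 2 of 2 is therefore a description. Il1rn, which encodes the IL-1 receptor antagonist, was at 0.435, 0, 0.0304, 0.283 and 0.0750 CPM in Sham and 0.995, 2.12, 1.33, 0.910 and 0.475 CPM in TAC. The lowest TAC library exceeded the highest Sham library only slightly, and TAC replicate 2 was highest (log2 fold change 2.83, SE 0.65, edgeR adjusted p = 0.0029). Il18bp, a secreted protein that binds IL-18, was at 6.46, 6.13, 6.35, 9.38 and 2.55 CPM in Sham and 16.2, 8.05, 12.2, 6.75 and 14.3 CPM in TAC, and the groups overlapped. Its log2 fold change was 0.89 (SE 0.32, edgeR adjusted p = 0.035). The call ended under 10 of 19 alternatives (adjusted p up to 0.098), among them the removal of Sham replicate 1, 2 or 3 (0.056, 0.062 and 0.061) or of TAC replicate 1, 3 or 5 (0.077, 0.058 and 0.069). The decoy receptor Il1r2 had 20 Sham counts and 49 TAC counts and was not tested.

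Of the IL-1 family receptors 2 of 6 tested rose (33.3%, near the 28.9% of all tested genes). Il1rl2, the receptor for the IL-36 cytokines, was at 1.12, 1.85, 2.67, 1.91 and 1.39 CPM in Sham and 4.97, 5.85, 4.03, 7.19 and 4.70 CPM in TAC, without overlap (log2 fold change 1.56, SE 0.24, edgeR adjusted p = 0.00019). Its ligand genes Il1f6, Il1f8 and Il1f9 had 0, 0 and 1 counts over all 10 libraries. Il18rap, the accessory chain of the IL-18 receptor, rose from 0.124, 0.319, 0.122, 0.206 and 0.113 CPM to 0.532, 1.15, 1.84, 0.470 and 1.08 CPM, also without overlap (log2 fold change 2.54, SE 0.47, edgeR adjusted p = 0.00070). Its partner Il18r1 was not called (3.35 ± 1.498 and 4.30 ± 1.65 CPM, SD, n = 5, adjusted p = 0.36).

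The signalling receptor for IL-1 itself did not show such a difference. Il1r1 measured 28.2, 32.5, 26.7, 23.2 and 39.9 CPM in Sham and 30.3, 28.4, 31.02, 31.2 and 32.5 CPM in TAC, and the Sham libraries spanned the whole TAC range (log2 fold change 0.03, SE 0.13, edgeR adjusted p = 0.86). Il1rap, the shared accessory chain, was at 20.04 ± 2.21 and 18.2 ± 4.40 CPM (SD, n = 5, adjusted p = 0.46). Il1rl1, the IL-33 receptor ST2, was at 0.986 ± 0.296 and 1.63 ± 0.730 CPM and was not called (adjusted p = 0.087), though it passed without TAC replicate 4 (0.034) and under scaling by totals alone (0.012).

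Receptors that use the common gamma chain or bind IL-4 and IL-13 rose in 4 of 8 tested cases, with 1 decrease. Beside these counts, 28.9% of all tested genes were higher and 27.9% lower. Il13ra1, which pairs with Il4ra in non-lymphoid cells to bind IL-4 and IL-13, had the smallest p of all members. Its level was 17.6, 19.2, 15.3, 18.8 and 20.2 CPM in Sham and 36.4, 51.5, 44.7, 49.8 and 45.6 CPM in TAC (log2 fold change 1.32, SE 0.11, edgeR adjusted p = 2.9e-06). Il4ra rose as well, from 20.6, 13.99, 13.7, 19.4 and 18.4 CPM to 29.6, 39.99, 34.04, 31.1 and 26.2 CPM (log2 fold change 0.90, SE 0.14, edgeR adjusted p = 0.00025). Neither gene's groups overlapped, and TAC replicate 2 was highest in both. Of the exonic bases of Il4ra, 9.51% are shared with a gene on the opposite strand.

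Il21r, the receptor for the T-cell product IL-21, rose from 0.497, 0.831, 0.577, 1.03 and 0.563 CPM to 2.01, 6.23, 4.94, 5.11 and 3.11 CPM, with the largest log2 fold change among receptors (2.59, SE 0.34, edgeR adjusted p = 6.1e-05). Il2rg, the common gamma chain, rose from 2.67, 1.47, 1.88, 2.68 and 1.09 CPM to 2.87, 3.74, 3.94, 3.61 and 4.64 CPM (log2 fold change 0.94, SE 0.25, edgeR adjusted p = 0.0069). TAC replicate 1 was the lowest TAC library of both, and for Il2rg it barely cleared the Sham range. Of the exonic bases of Il2rg, 30.5% are shared with Gm20489 on the same strand.

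Several ligands of these receptors had few or no counts. Il13 had 1 count and Il9 and Il21 had 0 counts over all 10 libraries, and Il2 had 24 in Sham and 23 in TAC. Il15ra, which presents IL-15 to neighbouring cells, fell from 18.4, 16.04, 16.6, 15.6 and 12.7 CPM to 13.8, 8.30, 11.8, 11.4 and 11.4 CPM, with TAC replicate 1 inside the Sham range (log2 fold change -0.49, SE 0.14, edgeR adjusted p = 0.0098). That call ended under scaling by totals alone (-0.14, adjusted p = 0.44) and without the 2 shallow Sham libraries (adjusted p = 0.059). Il2ra, the high-affinity IL-2 receptor chain, was at 0.683, 0.703, 0.729, 1.01 and 1.01 CPM in Sham and 0.416, 0.399, 0.7105, 0.793 and 0.501 CPM in TAC, with overlap. Il2ra, Il2rb and Il7r were not called (edgeR adjusted p = 0.087, 0.34 and 0.67).

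Il10ra and Il10rb, the private and shared chains of the IL-10 receptor, moved in opposite directions. Il10ra, expressed mainly by leukocytes, was at 2.86, 3.58, 3.19, 6.83 and 2.48 CPM in Sham and 8.81, 25.6, 19.1, 19.2 and 14.6 CPM in TAC, with no overlap (log2 fold change 2.18, SE 0.33, edgeR adjusted p = 0.00021). Il10rb was at 74.6, 80.7, 72.8, 85.8 and 80.4 CPM in Sham and 62.6, 51.5, 52.4, 56.2 and 59.6 CPM in TAC, and every TAC library lay below every Sham library (log2 fold change -0.48, SE 0.07, edgeR adjusted p = 0.00022). Under scaling by totals alone Il10rb was at -0.12 (adjusted p = 0.19) and no longer called. Another gene shares 14.9% of its exonic bases. The ligand Il10 had 5 counts in each group.

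In the IL-17 family 2 of 3 tested receptor chains rose (66.7%, against 28.9% of all tested genes). Il17ra, the shared chain of the family, was at 5.28, 6.71, 5.56, 6.65 and 4.47 CPM in Sham and 12.7, 21.00, 21.3, 19.7 and 22.1 CPM in TAC. TAC replicate 1 stood apart from the other TAC libraries and still lay above all Sham libraries (log2 fold change 1.75, SE 0.17, edgeR adjusted p = 7.6e-06). Il17rc, its partner for IL-17A and IL-17F, rose less, from 10.1, 11.1, 8.24, 8.61 and 8.14 CPM to 10.5, 14.6, 13.9, 12.1 and 14.5 CPM, with an overlap of TAC replicate 1 with Sham replicate 2 (log2 fold change 0.52, SE 0.13, edgeR adjusted p = 0.0044). Il17re, the IL-17C receptor chain, at 1.37, 2.62, 0.729, 0.953 and 1.58 CPM in Sham and 1.78, 0.947, 1.98, 1.17 and 2.90 CPM in TAC, was not called (adjusted p = 0.50). Il17rb, with 28 Sham counts and 25 TAC counts, was not tested. Il17a had 0 counts and Il17f had 1 count over all libraries. Il3ra, the IL-3 receptor chain, rose from 3.97, 4.66, 2.55, 3.48 and 3.86 CPM to 7.08, 10.02, 8.61, 9.60 and 9.63 CPM (log2 fold change 1.29, SE 0.17, edgeR adjusted p = 5.5e-05), whereas Il3 had 0 counts. Il20rb, a chain of the receptors for IL-20 and its relatives, was at 1.24, 2.30, 1.06, 1.06 and 1.28 CPM in Sham and 1.48, 1.47, 1.63, 1.17 and 1.48 CPM in TAC and was not called (adjusted p = 0.78).

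None of the tested receptors of the IL-6 family rose, and they included 2 of the 3 most abundant members per kb of exon. Il6st, which encodes gp130, supplied 52.3% ± 3.09 of all member CPM in Sham and 42.1% ± 3.15 in TAC (SD, n = 5). Its level was 428, 387, 382, 396 and 343 CPM in Sham and 284, 285, 302, 364 and 357 CPM in TAC, with overlap. The small decrease (log2 fold change -0.28, SE 0.10, edgeR adjusted p = 0.029) was not stable. Under scaling by totals alone the sign turned (0.08, adjusted p = 0.59), and the call ended without Sham replicate 1 or 4 (0.067 and 0.056) or TAC replicate 1, 2 or 3 (0.072, 0.098 and 0.068). Il11ra1, the IL-11 receptor, was at 58.4, 74.6, 63.2, 55.4 and 60.7 CPM in Sham and 54.1, 75.5, 63.2, 65.9 and 64.5 CPM in TAC, and the groups covered the same range (log2 fold change 0.05, SE 0.10, adjusted p = 0.69). Its near-identical copy Il11ra2 had 2 counts, and reads that fit both may have been lost from the counts. Il6ra (8.71 ± 1.89 and 11.1 ± 3.05 CPM) and Il27ra (8.07 ± 2.52 and 7.54 ± 1.47 CPM) were not called (adjusted p = 0.17 and 0.73). Under scaling by totals alone Il6ra and Il11ra1 were called higher (edgeR adjusted p = 0.0094 and 0.0096).

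Per kb of exon the order of levels was led in Sham by Il6st (34.9 CPM per kb), Il10rb (20.7), Il11ra1 (13.97), Il33 (7.13) and Il15 (6.57). In TAC the order was Il6st (28.7), Il10rb (14.8), Il11ra1 (14.5), Il13ra1 (12.3) and Il33 (6.28). Il10ra moved from place 17 of 37 to place 7 and Il1b from place 28 to place 12, while Il15ra moved from place 8 to place 15.

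**Figure D3:**
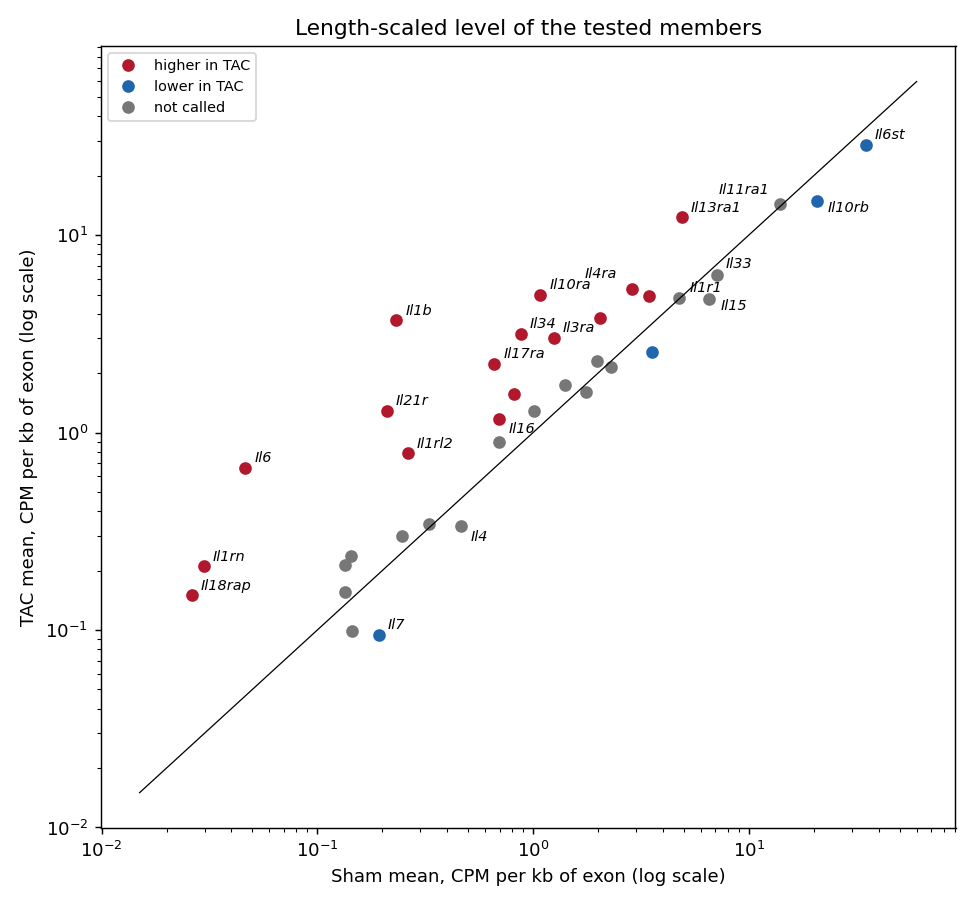
Mean level of the 37 tested members in CPM per kb of exon, Sham on the horizontal and TAC on the vertical axis, both logarithmic, with the line of equal levels. Members above the line at left, such as Il1b, Il6 and Il21r, were scarce in Sham, whereas the abundant Il6st, Il10rb and Il11ra1 lie on or near the line.

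Under the filter stood 45 members, 27 of them ligands. No count in any library was found for 12 of them, 10 of which are ligands, and a count of 0 allows up to 0.0694 to 0.192 CPM depending on the library. A few low members still differed in counts. Il13ra2, a decoy that binds IL-13 without signalling, had 0, 0, 0, 1 and 0 counts in the Sham libraries and 13, 9, 10, 31 and 7 in the TAC libraries. Scaled to depth, its pooled TAC to Sham ratio was 48.2, with an exact 95% interval from 8.37 to 1929 that covers counting error only. Il11, a gp130 ligand of stromal cells, had 3, 0, 1, 4 and 3 counts in Sham and 10, 23, 16, 10 and 20 in TAC. Il12b, a subunit of IL-12 and IL-23, had 1 count in Sham and 25 in TAC, present in all 5 TAC libraries. Il27 had 0 counts in Sham and 21 in TAC, 12 of them in replicate 5, which is at least 4.82-fold higher against a floor of 3 counts over the Sham group. With no filter on low counts these 4 passed the edgeR test (adjusted p = 0.00012 for Il13ra2, 0.0034 for Il11, 0.0071 for Il12b and 0.012 for Il27). Il12a had 0, 3, 7, 14 and 6 counts in Sham and 6, 3, 1, 0 and 0 in TAC and did not pass (adjusted p = 0.072).

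Ratios between members of one library need no scaling between libraries, so 10 pairs were set side by side, each by an exact permutation test (two-sided) on log2 ratios with 0.5 counts added to both genes. Where a gene has few counts, the added 0.5 makes its ratio depend on library depth. The log2 ratio of Il34 to Il16 rose from -1.63 ± 0.480 in Sham to -0.59 ± 0.398 in TAC (SD, n = 5). The ratio of Il11 to its receptor Il11ra1 rose from -9.49 ± 1.28 to -7.29 ± 0.439, and that of Il13ra1 to its decoy Il13ra2 fell from 9.47 ± 0.517 to 7.08 ± 0.849. Each of these 3 had the smallest exact p the design allows (0.0079, adjusted over the 10 pairs 0.026) and no overlap between groups. A pair was kept where each gene averaged at least 5 counts in either group. Il11 (11 Sham counts in all), Il13ra2 (1), Il1rn (21) and Il1r2 (20) met this only through TAC. The Sham ratios with Il11 and Il13ra2 rest on few counts and the added count, so these 2 tests are a description only. The size of the difference in the ratio Il13ra1/Il13ra2 depended on the added count, being -0.77 with 2 counts added (adjusted p = 0.20). All 3 differences lost their adjusted call with 2 counts added to each gene or when any 1 TAC library was left out (exact permutation, adjusted p from 0.053 to 0.20), and Il34/Il16 also without Sham replicate 4 or 5.

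The balance of ligand to antagonist was not shown to differ. The log2 ratio of Il1b to Il1rn was 1.90 ± 2.00 in Sham and 2.45 ± 1.16 in TAC (exact permutation p = 0.61, adjusted 0.68). For Il18 to Il18bp it was -2.01 ± 0.739 and -2.62 ± 0.669 (exact permutation p = 0.23, adjusted 0.33), and for Il33 to Il1rl1 4.34 ± 0.765 and 3.54 ± 0.891 (exact permutation p = 0.17, adjusted 0.29). For Il6ra to Il6st it was -5.49 ± 0.389 and -4.87 ± 0.468 (exact permutation p = 0.056, adjusted 0.14). The log2 ratio of Il4ra to Il2rg was 3.18 ± 0.512 and 3.10 ± 0.366 (exact permutation p = 0.82). The ratios of Il1r1 to Il1r2 and of Il15 to Il15ra also did not pass (adjusted exact permutation p = 0.22 and 0.55).

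Many of the other cytokines and receptors that share chains with interleukins rose. Of 17 tested genes of this list 12 rose (70.6%) and 3 fell (17.6%), with a median log2 fold change of 0.96. Of all tested genes 28.9% were higher and 27.9% lower. Under scaling by totals alone 14 rose and 3 fell, where 51.0% of all genes were higher and 12.7% lower. The calls of Osm and Csf2rb2 ended when some single libraries were left out. Adam17, the protease that sheds Il6ra, rose from 40.8 ± 2.70 to 60.7 ± 7.91 CPM, and Csf2ra, the private chain of the GM-CSF receptor, from 4.06 ± 0.232 to 8.24 ± 2.04 CPM (SD, n = 5). The gp130 partner receptors Cntfr and Lifr fell, from 63.6 ± 12.01 to 8.70 ± 1.62 and from 67.8 ± 5.11 to 39.04 ± 4.27 CPM. Csf1, the other ligand of the IL-34 receptor, was not called (58.1 ± 5.59 and 67.5 ± 9.82 CPM, edgeR adjusted p = 0.098).

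Downstream, 6 of 21 tested JAK, STAT and SOCS genes rose (28.6%, against 28.9% of all tested genes) and 8 fell (38.1%, against 27.9%), with a median log2 fold change of 0.05. Under scaling by totals alone 13 rose and 5 fell, where 51.0% of all genes were higher and 12.7% lower. The abundant transducers Stat3 (321 ± 22.1 to 170.0 ± 16.6 CPM), Stat5b (219 ± 11.01 to 80.1 ± 8.48), Stat5a (41.6 ± 6.31 to 18.95 ± 2.66) and Jak1 (242 ± 16.1 to 149 ± 9.17) fell. Ptpn6, a phosphatase of leukocytes that dampens cytokine receptors, rose from 2.88 ± 1.30 to 14.1 ± 3.78 CPM. Stat6, which carries the IL-4 and IL-13 signal, was not called (84.3 ± 5.35 and 83.98 ± 6.59 CPM, adjusted p = 0.96).

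In the list of inflammasome and IL-1 receptor signalling genes 6 of 23 rose and 6 fell (26.1% each), near the shares of all tested genes. Under scaling by totals alone 16 rose and 0 fell, where 51.0% of all genes were higher. Nlrp3, the inflammasome sensor, rose from 0.435 ± 0.208 to 1.86 ± 0.763 CPM and Casp1, which cleaves the IL-1 beta precursor, from 1.89 ± 0.229 to 3.86 ± 1.08 CPM (SD, n = 5). The adaptor genes Traf6 (27.3 ± 0.653 to 18.7 ± 1.33 CPM) and Irak1 (108 ± 8.47 to 83.6 ± 4.99 CPM) fell, but neither was called under scaling by totals alone (adjusted p = 0.099 and 0.93). Nfkb1 was not called (63.3 ± 2.92 and 69.4 ± 6.06 CPM, adjusted p = 0.14).

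**Figure D4:**
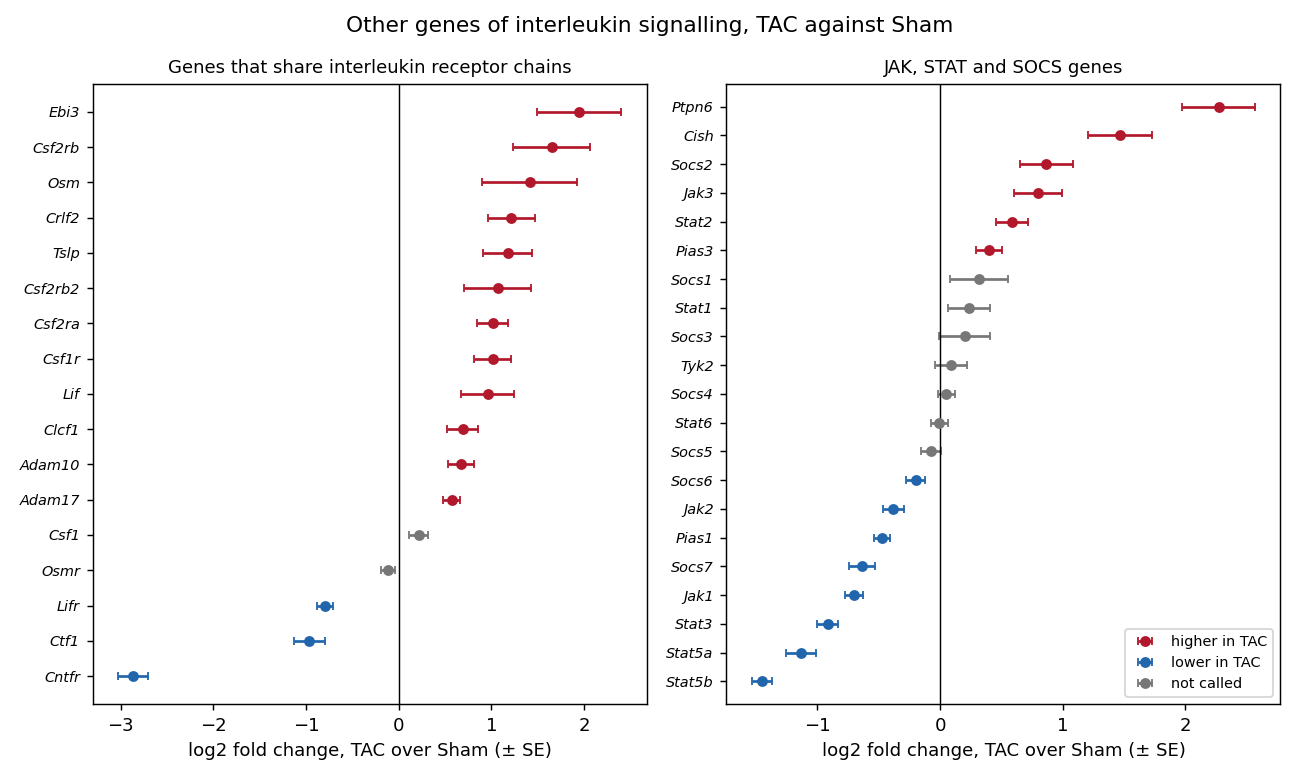
Log2 fold change (TAC over Sham) with standard error for the tested genes that share interleukin receptor chains (left) and for JAK, STAT and SOCS genes (right). At left 12 of 17 genes are higher, and at right Stat3, Stat5a, Stat5b and Jak1 stand among 8 lower genes.

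In the list of IL-17 receptor adaptors and target genes 5 of 10 tested genes rose, among them the adaptor Traf2, and the adaptor Traf3ip2 fell. In the list of genes that IL-6, IL-4 or IL-13 can induce 5 of 16 rose (31.2%) and 4 fell (25.0%), near the shares of all tested genes. Saa3, an acute-phase gene in both lists, rose from 0.199 ± 0.176 to 10.5 ± 8.52 CPM, and the matrix genes Timp1 and Postn rose from 4.99 ± 0.736 to 52.9 ± 9.09 and from 55.2 ± 23.1 to 723 ± 389 CPM (SD, n = 5). The eosinophil chemokine Ccl11, a target of IL-4 and IL-13, fell from 20.3 ± 4.51 to 0.287 ± 0.116 CPM. Nfkbiz (11.5 ± 3.31 and 11.1 ± 2.15 CPM) and Cebpd (24.5 ± 7.55 and 29.7 ± 12.4 CPM) were not called (adjusted p = 0.86 and 0.40). Traf3ip2 had a log2 fold change of -0.38 whose call (adjusted p = 0.034) ended under 11 of 19 alternatives, among them the removal of Sham replicate 2 or 4 or of any TAC library but replicate 2. Without the 2 shallow Sham libraries 3 genes of the IL-17 list rose and 0 fell, as the calls of S100a9 and Zc3h12a ended too. The call of S100a9 also ended without Sham replicate 3, without TAC replicate 1 and with no filter on low counts.

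Markers of several cell types also differed between the groups. Beside the counts below, 28.9% of all tested genes were higher and 27.9% lower. Of 14 tested macrophage and monocyte markers 11 rose and 2 fell, and the 15 markers summed to 410.5 to 688 CPM in Sham and 905 to 1479 CPM in TAC, with TAC replicate 1 lowest (904.6 CPM) and replicate 2 highest (1479 CPM) of the TAC libraries. The 2 that fell, named after their values were seen, were Timd4 and Lyve1, from 3.47 ± 0.675 to 0.913 ± 0.499 and from 77.8 ± 35.8 to 12.5 ± 7.21 CPM (SD, n = 5). The other tested genes of this list, among them Mrc1, Cd163 and Cx3cr1, were not called lower. TAC replicate 1 was the lowest TAC library for 11 of the 16 risen members and replicate 2 the highest for 9. This order was not particular to members or macrophage markers. On the main axis of variation over all tested genes (first principal component), TAC replicate 1 scored lowest of the TAC libraries (47.9) and replicate 2 highest (79.3). Neutrophil markers summed to 0.831 to 3.97 CPM in Sham and 4.87 to 11.5 CPM in TAC, with 3 of 3 tested higher and Ly6g at 0 in Sham, and B-cell markers to 0.338 to 2.36 CPM in Sham and 1.69 to 4.44 CPM in TAC, with 2 of 2 tested higher. T-cell markers summed to 3.11 to 6.27 CPM in Sham and 3.82 to 7.96 CPM in TAC, with 1 of 5 tested higher and 1 lower and Cd3d, Cd3e and Cd8a too low to test. Eosinophil markers summed to 0 to 0.103 CPM in Sham and 0.132 to 0.548 CPM in TAC, with Epx at 0 in all libraries. Cardiomyocyte markers summed to 60450.2 to 73811 CPM in Sham and 29335 to 39598 CPM in TAC, with 6 of 7 lower. Adipocyte markers, at 10.8 to 46.4 CPM in Sham and 0.274 to 8.31 CPM in TAC, were lower in 3 of 3 tested, and Schwann cell markers, at 7.02 to 11.3 CPM in Sham and 2.01 to 5.31 CPM in TAC, in 2 of 2. Fibroblast markers summed to 4588 to 6435 CPM in Sham and 4900.0 to 9508 CPM in TAC, with 5 of 9 higher and 2 lower, and endothelial markers to 1081 to 1675 CPM in Sham and 1269 to 1911 CPM in TAC, with 4 of 8 higher and 1 lower. Smooth muscle markers summed to 62.4 to 149.5 CPM in Sham and 152 to 356 CPM in TAC, with 2 of 4 higher. Mast cell markers summed to 6.23 to 15.5 CPM in Sham and 13.7 to 22.1 CPM in TAC, with 2 of 6 tested higher and 1 lower, and 1 of 5 mesothelial markers was higher. The markers of natural killer cells summed to 0.263 to 1.44 CPM in Sham and 1.04 to 3.85 CPM in TAC, with the 1 tested gene (Gzma) higher, and neither tested marker of group 2 innate lymphoid cells was called. The tested B-cell genes and Gzma passed the filter on low counts only with TAC libraries counted, as did at least 1 neutrophil gene. Their counts of higher genes are therefore a description. The part of the cell type markers in the results above was not tested.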

How the data were processed

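RNA of 10 left atrial libraries (5 Sham, 5 TAC, grouped by title) was sequenced. The values are raw read counts per gene symbol, deposited by the authors as 1 table per library with no normalization. STAR, bcl2fastq and build mm10 are named without versions in the submitters' processing notes, while a counter, a strand setting or an annotation is not given in the sources used here, so reads of overlapping antisense genes cannot be told apart. The 5 closing tallies that name no gene, such as reads aligned to several places (15.8% of reads in Sham and 13.4% in TAC on average), stayed out of library sizes and tests.

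Counts of all genes passing filterByExpr (15175) were fitted with edgeR 4.0.16 in R 4.3.3 (TMM, robust quasi-likelihood F test, group as the only term, Benjamini-Hochberg over all genes). The standard error is the size of the log2 fold change divided by the square root of F. Exon lengths, positions and overlaps came from GENCODE M21 (GRCm38, the assembly also called mm10), which named 81 of 82 members. Promoters came from RefSeq, GRCm38.p6. The members and gene lists were chosen with earlier results of these data known. Values per library were given for called members and the most abundant uncalled member of each role group. Pathway genes were named from the 4 smallest adjusted p, the rarer direction and the most abundant uncalled gene. A gene of the list of shared receptor chains is not reported here and was left out of its counts. Alternatives were RLE, upper-quartile or library size scaling, 2 other filters, DESeq2 1.42.0, limma 3.58.1 voom, a replicate block, a fold threshold and each library left out. Leaving out both shallow Sham libraries was chosen after seeing the data. The test was checked on simulated data. No 2 libraries were identical or agreed within sampling noise.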

Additional observations from a re-analysis of the deposited data

Results flagged for a closer look

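In 4 of 74 sets of 5 libraries (37 tested members in each group) a single library lay far from the other 4 of its group, where chance alone puts about 1 in 20 sets. Il15 was at 12.9 CPM in TAC replicate 1, against 9.84 to 10.4 CPM in the other TAC libraries. Il10ra was at 6.83 CPM in Sham replicate 4, against 2.48 to 3.58 CPM in the other Sham libraries. Il20rb was at 2.30 CPM in Sham replicate 2, one of the shallow libraries, against 1.06 to 1.28 CPM. Il17ra was at 12.7 CPM in TAC replicate 1, against 19.7 to 22.1 CPM in the other TAC libraries, and without that library it was still called.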

How the results depend on the processing

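Of the 16 higher members 13 kept their call and direction in all 19 alternatives that refit the data. Il18bp lost its call in 10, and Il1rn and Il18rap were not tested with a minimum of 1 CPM in 5 libraries. None of the 4 lower members kept its call in every alternative. The number of lower members was 0 with library size as the only scaling, 1 without the 2 shallow Sham libraries (Il10rb) and 0 when a log2 fold change of at least 1 was required, against 4. With each library left out in turn, 15 to 17 members were higher and 3 to 5 lower. Library size scaling turned the sign of Il6st (log2 fold change 0.0785, adjusted p = 0.59). The labels give both groups replicate numbers 1 to 5, but same-numbered libraries did not deviate together (correlations of deviations from -0.04 to 0.08), so the numbers were not taken as pairs. With the replicate block 15 members were higher and 3 lower. For the ratios the block allows no exact p under 0.0625. Levels under about 0.2 CPM rest on a few counts per library.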

Other observations

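The uneven Sham values of Il15 were shared by few genes. Among the 15175 tested genes, 11, Il15 itself included, had their lowest value over Sham replicates 2, 4 and 5 above 1 CPM and at least 3-fold over the highest of Sham replicates 1 and 3, with 0.05 CPM added to the latter, a rule chosen after the values of Il15 were seen. Fgf7, a growth factor gene, was at 3.91 and 4.04 CPM in Sham replicates 1 and 3 and at 21.9, 22.3 and 23.4 CPM in replicates 2, 4 and 5. Lbp, which encodes the lipopolysaccharide-binding protein, was at 1.43 and 1.03 CPM against 16.1, 8.81 and 17.7 CPM. Dusp10, a phosphatase gene, was at 14.2 and 11.8 CPM against 69.2, 59.4 and 134.7 CPM. In TAC replicate 3 Fgf7 (4.17 CPM) and Lbp (2.31 CPM) were again the lowest of the TAC libraries, while Il15 there was 10.3 CPM, within the range of the other TAC libraries. Dusp10 was at its highest TAC value there (8.38 CPM, against 5.54 to 7.95 CPM in the other TAC libraries).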
